A study of Mus musculus with 28 samples.

Results

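Hyaluronan is a long sugar chain spun into the extracellular matrix at the cell surface, and versican is the large chondroitin sulfate proteoglycan that binds to it. The 10 genes described here were chosen by symbol and cover how hyaluronan is made (Has1, Has2, and Has3), how it is broken down (Hyal1, Hyal2, and Cemip), what binds and links it in the matrix (Vcan, Tnfaip6, and Hapln1), and the receptor that holds it at the cell surface (Cd44). They are 10 of 56980 genes in the bulk table. Among them, 8 had a mean normalized count of at least 100 and were tested beside 12673 genes in all, while Has3 and Hapln1 fell below that level.

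Bulk RNA sequencing covered single vessels of C57BL/6 mice of both sexes: 7 jugular veins from the contralateral side and the outflow side of 8 early, 5 mid, and 5 late carotid-jugular arteriovenous fistulas (AVFs). The labels give day 3 for early, day 10 for mid, and day 21 for late AVFs, and no day for the contralateral veins. The study gives a mean day and a spread for every bulk AVF group, with the widest spread in the early group. AVFs of a group therefore need not share a harvest day. Every mouse, including those that gave the control veins, had a 5/6 nephrectomy some weeks before the AVF was made, so the contralateral veins are veins of nephrectomized mice without the arterial connection. Single-cell RNA sequencing covered 3 libraries, from contralateral veins, from early AVFs, and from late AVFs, every one a pool of vessels from male and female mice. The labels give no day for the single-cell libraries, and the study describes their early and late pools as taken at later days than the bulk groups of the same name, so early and late do not mean the same days in both assays. The tissue was dissociated with an enzyme mixture that contained hyaluronidase.

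Hyaluronan synthases sit in the plasma membrane, build the chain from UDP-sugars, and extrude it outside the cell. Versican, held to hyaluronan and further linked by TSG-6 (the product of Tnfaip6) and link proteins, forms the loose, hydrated provisional matrix through which smooth muscle cells and fibroblasts migrate after vessel injury. Fragments of hyaluronan left by hyaluronidases and by the Cemip protein are read by receptors such as CD44 on leukocytes and stromal cells.

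The sequences just upstream of 4 of these genes are shown because their transcripts either passed the test in bulk tissue (Vcan and Cd44) or, in the late single-cell library, were the highest of the group in fibroblast-like cells (Tnfaip6 and Has1). Each is the 150 bases before the annotated start as RefSeq gives it on GRCm38.p6, read 5′ to 3′ on the gene's own strand, for Has1 at chr17:17855189-17855338 (minus strand), Vcan at chr13:89742513-89742662 (minus), Tnfaip6 at chr2:52037963-52038112 (plus), and Cd44 at chr2:102901666-102901815 (minus). Capitals mark a match on either strand to TGANTCA, the AP-1 motif, or to GGGCGG, the Sp1 motif, here in its reverse complement CCGCCC.
Has1: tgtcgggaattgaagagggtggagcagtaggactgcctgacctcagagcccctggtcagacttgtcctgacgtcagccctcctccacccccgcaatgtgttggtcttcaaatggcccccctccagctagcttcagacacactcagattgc
Vcan: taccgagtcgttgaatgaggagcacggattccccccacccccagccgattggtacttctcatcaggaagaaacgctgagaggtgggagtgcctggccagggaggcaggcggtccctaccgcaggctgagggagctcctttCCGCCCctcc
Tnfaip6: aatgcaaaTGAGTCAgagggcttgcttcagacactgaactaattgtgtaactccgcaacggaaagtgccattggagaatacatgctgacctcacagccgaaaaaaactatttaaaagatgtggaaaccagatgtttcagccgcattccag
Cd44: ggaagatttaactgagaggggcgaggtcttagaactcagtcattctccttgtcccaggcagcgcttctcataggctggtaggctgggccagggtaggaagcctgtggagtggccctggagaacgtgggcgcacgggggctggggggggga

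Over the full 250 bases before the start, 8 of the 10 genes had a promoter entry. The AP-1 letters TGANTCA stood in Tnfaip6 alone, 142 to 136 bases before the start, and in 6.75% of all 32851 promoter entries. The Sp1 letters GGGCGG stood in 5 of the 8 (Hyal1, Hyal2, Cemip, Vcan, and Tnfaip6) and in 32.7% of all entries. The TATA box letters TATAAA stood in Cemip alone, 29 to 24 bases before the start, and in 12.4% of all entries. Neither the NF-kappaB consensus (4.65% of all entries) nor CACGTG, the E-box (6.02%), was found in any of the 8. These are letter matches and not measured binding.

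Bulk libraries held between 20254173 and 67457501 counts. The contralateral veins were the more variable group: between 2.86% and 22.5% of the tested genes had no count in a contralateral library, against 0.0789% to 4.70% in AVF libraries. Contralateral vein 28 stood apart, with 22.5% of tested genes at 0 and a median rank correlation of 0.587 with the other contralateral veins, which had medians of up to 0.741. Results are therefore given with and without it where it mattered. Levels are given as CPM, a gene's read count relative to its library's total after TMM scaling, so that libraries of different depth can be compared. Composition also shifted between groups. The summed level of 11 monocyte and macrophage markers ran from 2141 to 8270 CPM in contralateral veins and from 12231 to 37883 CPM in early AVFs, and that of 7 smooth muscle markers from 10841 to 22293 and from 1130 to 2743 CPM. The summed level of 7 fibroblast markers was 13711 to 32353 CPM in contralateral veins and 2276 to 19956 CPM in early AVFs. Their part in the results below was not tested. In bulk tissue, fewer cells of a type and less RNA per cell cannot be told apart.

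Against contralateral veins, Cd44 and Vcan rose in early AVFs and Cd44 rose in mid AVFs. A gene was called when edgeR's quasi-likelihood test gave an adjusted p under 0.01 (Benjamini-Hochberg over all genes tested) with at least a 2-fold change. By that rule 2 of the 8 tested genes were called in early AVFs, where 12.6% of all tested genes were called in either direction and 6.17% were called higher. In mid AVFs 1 of 8 was called, beside 6.05% of all genes in either direction and 2.74% higher. In late AVFs none of the 8 was called, beside 5.33% of all genes and 2.49% higher. At an adjusted p under 0.05 both Cd44 and Vcan were called there (10.3% of all genes), as they were by DESeq2 (10.1%) and by edgeR's likelihood ratio test (8.24%). Over the 4 groups together Cd44 alone was called, beside 12.7% of all genes. The 3 comparisons share the same 7 contralateral veins. The median log2 fold change of the 8 genes was 1.96 at the early, 2.09 at the mid, and 1.65 at the late time, where the medians over all tested genes were -0.01, -0.10, and -0.09.

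**Figure D1:**
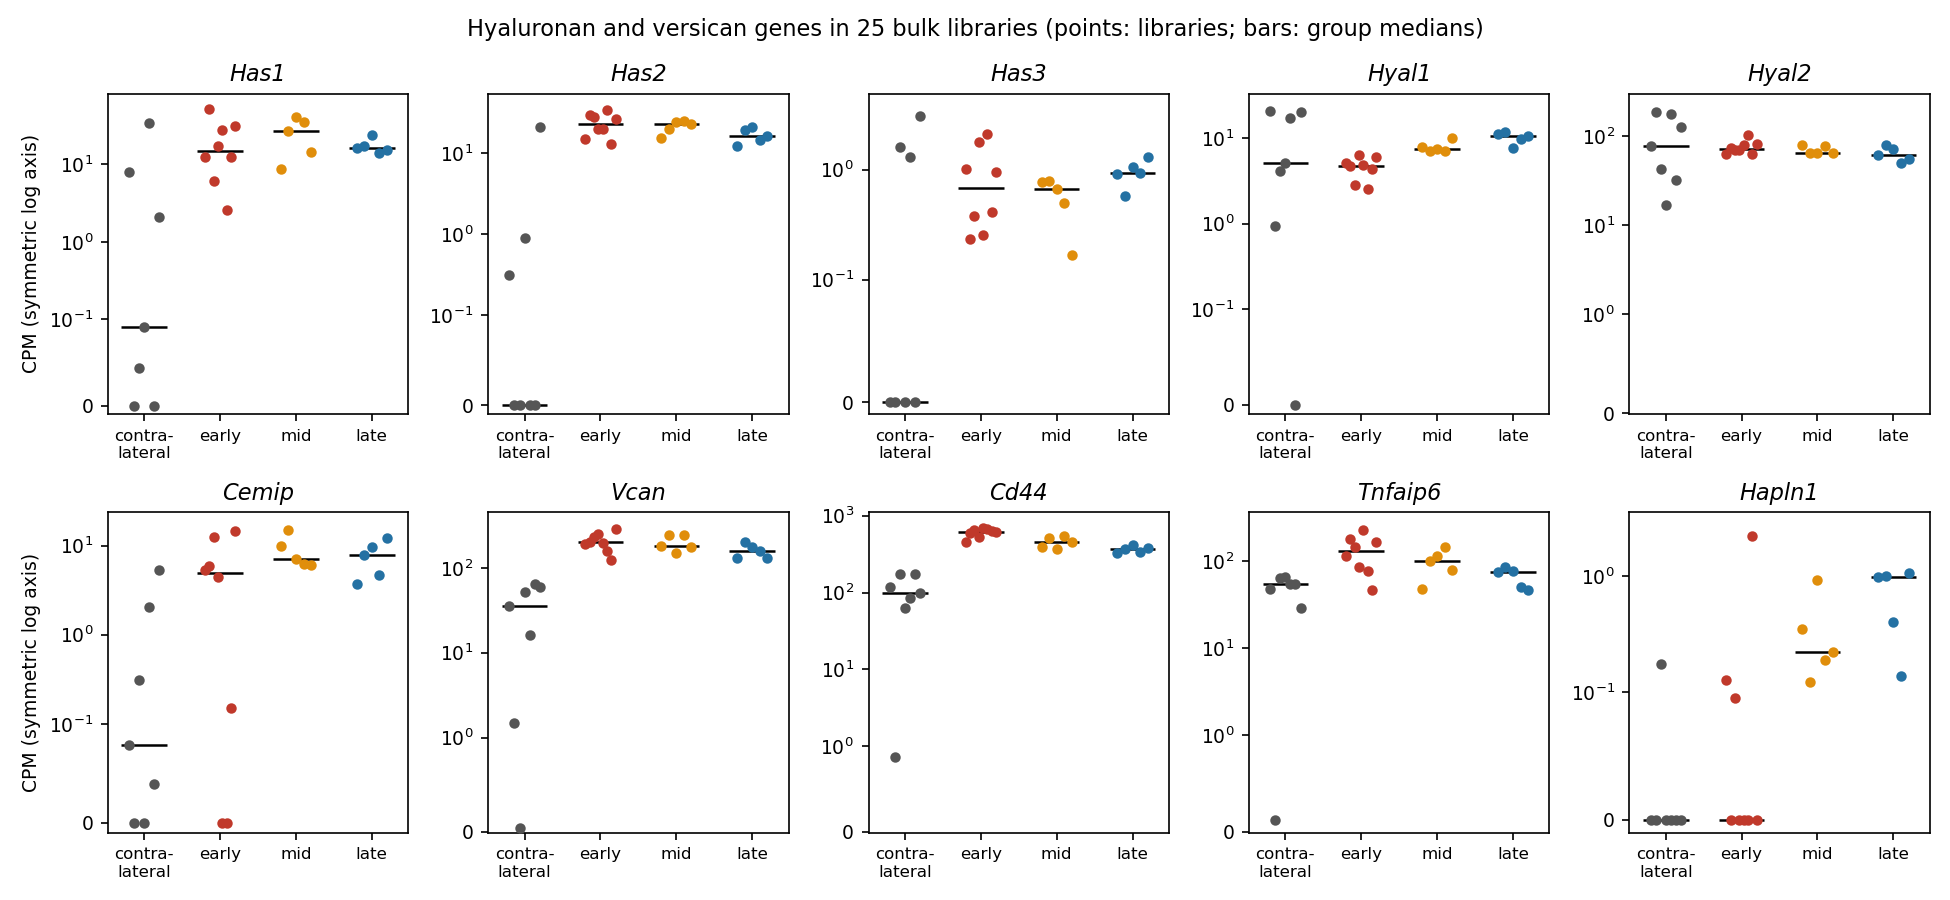
CPM of each of the 10 genes in every bulk library (points; vertical axis on a symmetric log scale, which is linear near 0 and logarithmic above) by group (horizontal axis), with a bar at each group's median. Vcan and Cd44 in all AVF libraries lie above every contralateral vein, while the contralateral points of Has1, Has2, and Hyal1 spread from 0 into the AVF range.

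CD44 is the main cell surface receptor for hyaluronan on leukocytes, fibroblasts, and smooth muscle cells. Cd44 (ENSMUSG00000005087, chr2:102811141-102901665, minus strand, GRCm38) measured 117 CPM in contralateral vein 27, 0.875 in vein 28, 174 in vein 31, 62.9 in vein 34, 86.0 in vein 35, 172 in vein 632, and 97.4 in vein 633. Early AVFs ran from 461 to 697 CPM with a median of 621. Mid AVFs measured 389.5, 517, 372, 549, and 448 CPM and late AVFs 323, 371, 411, 340.2, and 375 CPM. Thus every AVF library exceeded every contralateral vein, as did 4.47% of tested genes at the early, 7.32% at the mid, and 6.25% at the late time, and every late AVF lay below every early AVF, as did 8.39% of tested genes.

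The Cd44 log2 fold change against contralateral veins was 2.57 ± 0.47 (SE; adjusted p = 0.000225 by edgeR's quasi-likelihood test, Benjamini-Hochberg) in early, 2.17 ± 0.50 (adjusted p = 0.00414) in mid, and 1.84 ± 0.50 (adjusted p = 0.0146) in late AVFs. Over the 4 groups together its adjusted p was 0.00171. Without contralateral vein 28 the late change was 1.65 ± 0.22 (adjusted p = 1.32e-05) and Cd44 was called (5.77% of all genes were). Cd44 was also called at late without vein 31 (2.10, adjusted p = 0.00893), beside 5.58% of all genes. The mid call did not hold when contralateral vein 35 was left out (2.06, adjusted p = 0.0103), nor without mid AVF 12 (2.13, adjusted p = 0.0108), or mid AVF 14 (2.09, adjusted p = 0.0122). From early to late the change was -0.73 ± 0.50 (adjusted p = 0.599), and -0.73 ± 0.21 (adjusted p = 0.0232) without vein 28. The gene counts do not separate the CD44 splice forms.

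Vcan encodes versican, whose chondroitin sulfate chains swell the provisional matrix. Vcan (ENSMUSG00000021614, chr13:89655312-89742509, minus strand) measured 35.5, 1.499, 0.0438, 52.3, 16.3, 65.3, and 59.5 CPM in contralateral veins 27, 28, 31, 34, 35, 632, and 633. Early AVFs ran from 125 to 284 CPM with a median of 200.4, mid AVFs measured 180.4, 246, 149.5, 243, and 177 CPM, and late AVFs measured 129, 199.6, 178, 159, and 129.9 CPM. Every AVF library lay above the contralateral range, as held for 4.47% of tested genes at the early, 7.32% at the mid, and 6.25% at the late time. The early, mid, and late ranges overlapped one another. The fitted change was 2.64 ± 0.64 (adjusted p = 0.00354 by edgeR's quasi-likelihood test, Benjamini-Hochberg) in early, 2.60 ± 0.68 (adjusted p = 0.0117) in mid, and 2.27 ± 0.68 (adjusted p = 0.0284) in late AVFs.

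The Vcan calls depended on single contralateral veins. Without vein 35 the early change was 2.44 (adjusted p = 0.0102) and was no longer called. Without vein 31, in which Vcan was nearly absent, the changes were 2.37, 2.45, and 2.12 with adjusted p of 0.000417, 0.00128, and 0.00463, so that all 3 passed, beside 14.0%, 6.58%, and 5.58% of all genes. At mid it was also called without vein 28 (adjusted p = 0.00987), vein 632 (0.00849), and vein 633 (0.00985). Without vein 633, 7.54% of all genes were called at mid, and leaving out single libraries gave 530 to 955 genes. The annotation places an antisense gene, Gm4117, over Vcan, and whether the counting used strand is not given in the sources used here. Gene counts also do not separate the versican splice forms.

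TSG-6, the secreted product of Tnfaip6, is induced by inflammatory cytokines and transfers heavy chains of inter-alpha-inhibitor onto hyaluronan. Tnfaip6 (ENSMUSG00000053475, chr2:52038009-52056686, plus strand) measured 48.0, 0.125, 64.7, 66.3, 55.1, 54.9, and 29.0 CPM in contralateral veins 27, 28, 31, 34, 35, 632, and 633. Early AVFs ran from 46.7 to 229 CPM with a median of 129.7, and 7 of the 8 lay above all contralateral veins. Mid AVFs measured 47.7, 101, 115, 147, and 79.3 CPM and late AVFs 75.3, 84.7, 77.7, 50.5, and 46.6 CPM. The late range thus overlapped the contralateral one. The log2 change was 1.52 ± 0.54 (adjusted p = 0.0429 by edgeR's quasi-likelihood test, Benjamini-Hochberg) in early, 1.11 ± 0.59 (adjusted p = 0.24) in mid, and 0.56 ± 0.59 (adjusted p = 0.613) in late AVFs. Without contralateral vein 28 the early change of Tnfaip6 was called (1.33 ± 0.31, adjusted p = 0.00273, with 14.3% of all genes called).

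Hapln1 encodes a link protein that locks proteoglycans to hyaluronan and is best known from cartilage. Hapln1 (ENSMUSG00000021613, chr13:89539796-89611652, plus strand, next to Vcan) had no count in 6 of the 7 contralateral veins and 0.175 CPM in vein 31. It had none in 5 of the 8 early AVFs and up to 2.26 CPM in early AVF 7. Mid AVFs measured 0.348, 0.121, 0.941, 0.188, and 0.223 CPM and late AVFs 0.982, 1.02, 0.399, 0.137, and 1.08 CPM, so the transcript was counted in every mid and late AVF at a low level. Tested only when the low-count filter was relaxed to edgeR's filterByExpr (20076 genes), its adjusted p by the quasi-likelihood test (Benjamini-Hochberg) was 0.0787 at the early, 0.0855 at the mid, and 0.0308 at the late time. The summed level of 6 cartilage and bone markers was 0 to 8.39 CPM in contralateral veins, with Col2a1, Col9a1, Sost, and Ibsp at 0 in all 7, 1.76 to 31.7 CPM in early, 21.3 to 92.9 CPM in mid, and 70.8 to 168 CPM in late AVFs, and its part in the Hapln1 values was not tested.

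Among the synthases, HAS2 makes most of the hyaluronan of developing and injured tissue. Has2 (ENSMUSG00000022367, chr15:56665627-56694539, minus strand) had no count in contralateral veins 28, 31, 35, and 632, and measured 0.316 CPM in vein 27, 0.907 in vein 34, and 21.1 in vein 633. Early AVFs ran from 13.2 to 34.3 CPM with a median of 23.4. Mid AVFs measured 15.4, 19.9, 24.7, 25.02, and 23.1 CPM and late AVFs 12.2, 19.2, 21.0, 14.5, and 16.4 CPM. All 18 AVF libraries lay above 6 of the 7 contralateral veins, and only vein 633 reached into their range. The change was 2.87 ± 1.13 (adjusted p = 0.0696 by edgeR's quasi-likelihood test, Benjamini-Hochberg) in early, 2.76 ± 1.19 (adjusted p = 0.138) in mid, and 2.38 ± 1.18 (adjusted p = 0.213) in late AVFs. Without vein 633, Has2 was called in all 3 comparisons, with changes of 6.81, 6.70, and 6.32 (adjusted p = 1.69e-05, 5.47e-05, and 0.000102), beside 13.8%, 7.54%, and 7.02% of all genes. Vein 633 had 2.98% of tested genes at 0, whereas veins 28, 31, 35, and 632, without a Has2 count, had 22.5%, 17.5%, 7.70%, and 15.7%. Vein 27, with Has2 at 0.316 CPM, had 2.86% at 0, and vein 34, with 0.907 CPM, had 13.5%. Leaving out vein 633 thus removed a control with few undetected genes, and the part of detection in these changes was not tested. DESeq2 called it in early AVFs with all libraries in (3.11 ± 0.96, adjusted p = 0.00631, with 19.0% of all genes called). An antisense gene, Has2os, overlaps Has2, and its reads could not be told apart if strand was not used.

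HAS1 has a lower affinity for its substrates than the other synthases and is inducible by inflammatory signals. Has1 (ENSMUSG00000003665, chr17:17843323-17855205, minus strand) measured 8.07, 0, 0.0438, 0.0907, 33.8, 0, and 2.07 CPM in contralateral veins 27, 28, 31, 34, 35, 632, and 633. Early AVFs ran from 2.61 to 51.1 CPM with a median of 14.7, mid AVFs measured 8.67, 27.1, 40.6, 35.4, and 14.6 CPM, and late AVFs 16.0, 17.2, 23.7, 14.0, and 15.4 CPM. Vein 35 exceeded all late AVFs, so no AVF group was clear of the contralateral range. The changes were 1.67 ± 1.07, 2.00 ± 1.16, and 1.45 ± 1.16 in early, mid, and late AVFs (adjusted p = 0.285, 0.292, and 0.474 by edgeR's quasi-likelihood test, Benjamini-Hochberg). Without vein 35 they were 3.49, 3.83, and 3.29 (adjusted p = 0.0208, 0.0277, and 0.0567), none of which passed 0.01.

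HAS3, the remaining synthase, was scarce. Has3 (ENSMUSG00000031910, chr8:106870242-106884566, plus strand) had no count in 4 contralateral veins and 1.62, 1.30, and 3.07 CPM in veins 31, 35, and 633. The AVF libraries ran from 0.167 to 2.09 CPM and overlapped these. With the relaxed filter its late change was 0.16 ± 1.14 (adjusted p = 0.946 by edgeR's quasi-likelihood test, Benjamini-Hochberg). Chtf8 on the opposite strand overlaps Has3. Per kilobase of exon, the scale on which genes can be compared, the median early level was 5.51 CPM for Has2, 3.26 for Has1, and 0.107 for Has3. The ranges of Has1 and Has2 per kilobase overlapped in every group.

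The degrading enzymes did not pass the test in any comparison. HYAL2 is a membrane-anchored hyaluronidase that cuts long chains, and HYAL1 finishes the fragments in lysosomes. Hyal2 (ENSMUSG00000010047, chr9:107567945-107572779, plus strand) ran from 16.6 to 188 CPM with a median of 77.0 in contralateral veins, from 62.6 to 104 CPM with a median of 72.0 in early AVFs, from 64.2 to 80.3 CPM in mid, and from 49.4 to 78.5 CPM in late AVFs. The AVF values sat inside the wide contralateral spread. Its changes were -0.32 ± 0.35, -0.43 ± 0.40, and -0.57 ± 0.40 (adjusted p = 0.563, 0.56, and 0.405 by edgeR's quasi-likelihood test, Benjamini-Hochberg).

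Hyal1 (ENSMUSG00000010051, chr9:107576927-107581710, plus strand, just downstream of Hyal2) measured 20.5, 0.937, 4.12, 5.08, 17.1, 0, and 19.7 CPM in contralateral veins 27, 28, 31, 34, 35, 632, and 633. Early AVFs ran from 2.50 to 6.33 CPM with a median of 4.73. Mid AVFs measured 7.87, 7.06, 7.33, 6.98, and 10.03 CPM and late AVFs 11.1, 11.8, 7.65, 9.79, and 10.6 CPM. Every mid and every late AVF exceeded every early AVF, as did 3.31% of tested genes in mid and 7.16% in late. The fitted changes of Hyal1 from early were 0.78 ± 0.79 at mid (adjusted p = 0.948 by edgeR's quasi-likelihood test, Benjamini-Hochberg) and 1.16 ± 0.78 at late (adjusted p = 0.595). Its annotated span overlaps those of Naa80 and Hyal3 on the same strand, so some of its reads may be uncertain. Overlap of the exons themselves was not examined.

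CEMIP is a secreted and endoplasmic protein that binds hyaluronan and is needed for its breakdown by skin and joint fibroblasts. Cemip (ENSMUSG00000052353, chr7:83932857-84086502, minus strand) measured 0.0791, 0, 0.306, 0, 2.07, 0.0392, and 5.31 CPM in contralateral veins 27, 28, 31, 34, 35, 632, and 633. Early AVFs 1, 2, 3, 4, and 10 measured 5.26, 5.90, 12.5, 4.46, and 14.7 CPM, while early AVFs 5 and 6 were at 0 and early AVF 7 at 0.151 CPM. Those 3 low libraries also had the lowest summed fibroblast marker levels of the early group, 5862, 3336, and 2276 CPM beside 12170 to 19956 CPM in the other 5, and the part of this difference was not tested. Mid AVFs measured 10.00, 14.9, 7.11, 6.26, and 6.02 CPM, all above the contralateral veins, as held for 7.32% of tested genes. Late AVFs measured 3.68, 7.90, 9.62, 4.65, and 12.1 CPM, of which 3 were above those veins.

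The Cemip changes were 2.26 ± 1.28, 2.98 ± 1.39, and 2.76 ± 1.38 in early, mid, and late AVFs (adjusted p = 0.219, 0.173, and 0.218 by edgeR's quasi-likelihood test, Benjamini-Hochberg). Without contralateral vein 633, the highest control and a vein with 2.98% of tested genes at 0, they were 3.66, 4.38, and 4.16 (adjusted p = 0.0554, 0.0471, and 0.059). Vein 27, with 2.86% of tested genes at 0, had Cemip at 0.0791 CPM. None of the 8 tested genes was called between mid and early, late and early, or late and mid AVFs, where 0.00789%, 3.01%, and 0.0% of all tested genes were called. For late against mid, 39 of all tested genes had an unadjusted p under 0.05, far fewer than that threshold gives without any difference, and DESeq2 called 1. The more variable contralateral veins entered the estimate of spread used for these comparisons too. The power of the test between AVF groups was not measured, and the absence of a call there does not show equal levels.

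**Figure D2:**
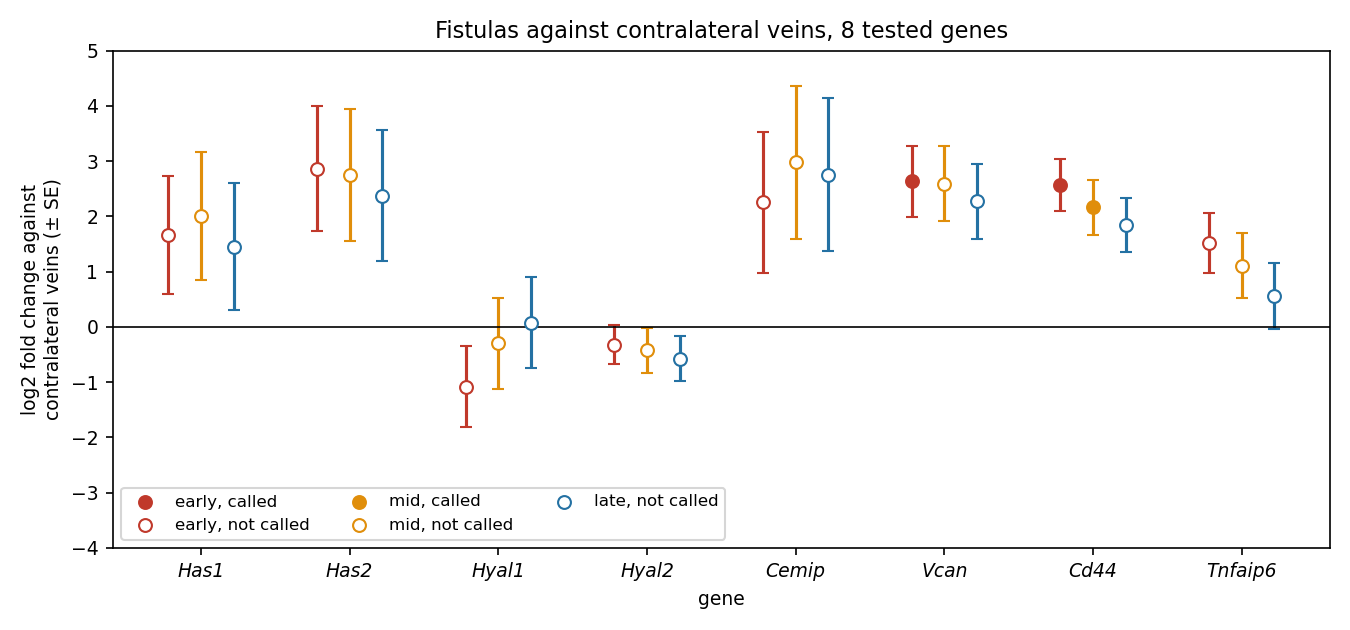
Fitted log2 fold change against contralateral veins (vertical axis) of the 8 tested genes (horizontal axis) in early, mid, and late AVFs (colors), with bars of 1 standard error on each side, filled points for called changes, and open points for the rest. Only Vcan in early and Cd44 in early and mid AVFs are filled, and the bars of Has1, Has2, and Cemip are more than 1 log2 unit long on each side.

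Per kilobase of exon, the order of the transcripts differed between veins and AVFs. In contralateral veins the medians were 32.1 CPM per kilobase for Tnfaip6, 23.4 for Hyal2, 14.4 for Cd44, 2.45 for Vcan, and 1.34 for Hyal1, with overlapping ranges between each neighboring pair. In early AVFs they were 91.6 for Cd44, 75.9 for Tnfaip6, 21.9 for Hyal2, 13.9 for Vcan, 5.51 for Has2, 3.26 for Has1, 1.25 for Hyal1, and 0.397 for Cemip. There Cd44 and Tnfaip6 overlapped each other, as did Tnfaip6 and Hyal2, Hyal2 and Vcan, Has2 and Has1, Has1 and Hyal1, and Hyal1 and Cemip, whereas the ranges of Vcan and Has2 did not meet.

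The sexes were unevenly spread, with 2 males among the 7 contralateral veins and 5 among the 8 early AVFs. No member had a difference between sexes in its early change that passed the test, where 57 of 12673 genes (0.45%) did. Has2 came nearest, with an early change that differed by -5.53 log2 units (male minus female; adjusted p = 0.285 by edgeR's quasi-likelihood test, Benjamini-Hochberg), and its high contralateral value came from vein 633, a male. With sex as a term in the fit the same 2 genes in early AVFs and the same gene in mid AVFs were called. In female mice alone no member was called, beside 2.61%, 1.53%, and 1.38% of all genes in early, mid, and late AVFs, and the early change of Cd44 was 2.90 (adjusted p = 0.046 by edgeR's quasi-likelihood test, Benjamini-Hochberg).

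Other genes of the pathway were read from 7 lists, whose counts stand beside the 12.6%, 6.05%, and 5.33% of all tested genes called at the early, mid, and late times. In the 6 tested genes that supply UDP-sugars, none was called in any of the 3 comparisons with contralateral veins, and the median log2 change was -0.32, 0.08, and -0.11 in early, mid, and late AVFs. Of 4 tested genes for other degrading enzymes only Gusb, the lysosomal beta-glucuronidase, was called (early, 1.72 ± 0.43, adjusted p = 0.00394 by edgeR's quasi-likelihood test, Benjamini-Hochberg). Of 6 other hyaluronan receptors and fragment sensors only Lyve1, the receptor of lymphatic endothelium and resident macrophages, was called, and it fell in early AVFs by 1.61 on the log2 scale (adjusted p = 0.00336 by the same test). Of 5 tested ADAMTS proteases that cleave versican none was called, with a median change of -0.42, 0.22, and 0.29.

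Among 6 tested genes for other hyaluronan-binding matrix proteins, 3 were called higher in early and 2 each in mid and late AVFs, where 6.17%, 2.74%, and 2.49% of all tested genes were called higher. Acan, the cartilage proteoglycan aggrecan, had no count in any contralateral vein and reached up to 5.36 CPM in early, 4.18 to 26.2 CPM in mid, and 12.9 to 55.3 CPM in late AVFs. Itih4, of the inter-alpha-inhibitor heavy chain family, had log2 changes of 3.61, 3.89, and 3.77 (adjusted p = 0.00376, 0.00603, and 0.0083 by edgeR's quasi-likelihood test, Benjamini-Hochberg). Ptx3, the pentraxin that binds TSG-6 in hyaluronan matrices, was called in early AVFs alone (4.35 ± 0.84, adjusted p = 0.000384), with 9.89 to 140.5 CPM there and 0 to 5.68 CPM in contralateral veins. The difference between time points was not called for any of them.

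Of 5 tested partners that bind versican in the matrix, 2 were called higher and 1 lower in early AVFs, 4 higher in mid, and 3 higher in late AVFs, beside the same shares of all genes called higher. Fn1 (fibronectin) rose by 1.30, 2.30, and 2.41 on the log2 scale and Tnc (tenascin-C) by 2.04, 2.89, and 1.81 in early, mid, and late AVFs. Fbln1 (fibulin-1) fell in early AVFs by 2.12 on the log2 scale and was higher in late than in early AVFs by the same test. Among the 17 genes for chondroitin sulfate chains, all tested, Chst3 and Xylt1 were called higher in early and mid AVFs and Chst3 in late AVFs, and the list median was 0.66 at early, 0.78 at mid, and 1.07 at late. Xylosyltransferase, the product of Xylt1, starts each chain on the core protein, and Xylt1 measured 0 to 5.10 CPM in contralateral veins and 11.3 to 29.2 CPM in early AVFs. Chst3, a chondroitin 6-O-sulfotransferase, had no count in 5 of 7 contralateral veins and 6.82 to 13.95 CPM in late AVFs.

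Across the 25 bulk libraries, the tested gene most alike to Vcan was Loxl2 (Spearman's rho 0.899), which was also the most alike to Tnfaip6 (0.806), and Adam12 was among the 3 most alike to both (0.879 and 0.776). Cd44 was most alike to Prelid1 (0.974), Ap2s1 (0.965), and Tarm1 (0.962), Has1 to Ticam1 (0.828), Has2 to Tnfrsf23 (0.809), Hyal1 to Zfp970 (0.932), Hyal2 to Cdc5l (0.755), and Cemip to Nr4a3 (0.868). Between members the highest values were 0.756 for Vcan and Tnfaip6, 0.748 for Vcan and Cd44, 0.711 for Has2 and Cd44, and 0.709 for Has2 and Vcan. These describe libraries that fall into 4 groups and share the differences between them.

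The single-cell libraries show which cells carried these transcripts. After filtering, 6319 of 11563 barcodes remained for contralateral veins, 4753 of 7074 for early AVFs, and 5821 of 7801 for late AVFs, with a median of 2751, 8951, and 15425 unique molecular identifiers (UMIs, counted RNA molecules) per cell. The libraries shared 19, 14, and 16 barcodes pairwise, of which 5 to 6 pairs were kept. With 1 library per condition there is no test: where brackets follow a value, they hold the exact 95% Poisson interval of a lineage's summed CPM or the exact 95% binomial interval of a share of cells, and both cover counting error only. Clusters were named from marker genes, and none of the 10 genes was used in the clustering. Fibroblast-like cells made up 8.44% of the kept early cells. With a looser filter (20% mitochondrial UMIs, no upper gene limit), the Vcan level over all early cells was 277 CPM in place of 154. Tnfaip6 was at 450 in place of 246 CPM and Has2 at 36.7 in place of 15.8 CPM. Shares of a gene's UMIs by lineage hold for the kept cells alone. Fibroblast-like cells of the contralateral library were mostly cluster 3 (1786 of 1866 cells) and those of the AVF libraries mostly cluster 2 (396 of 401 early and 1859 of 1938 late), and Tnfaip6 was among the leading genes of cluster 2. Monocyte and macrophage-like cells were mostly cluster 11 in the contralateral library (687 of 756) and clusters 1 and 5 in the AVF libraries (2037 early and 1613 late cells in the class), so a level compared between libraries also compares different clusters. Depth differed too, and T cell-like cells, which should lack the synthases, are given as the background. With finer clustering (resolution 1.0), 578 contralateral, 83 early, and 61 late cells were named NK cell-like. Cells named T cell-like then numbered 50, 84, and 502, so the make-up of this background differs between libraries. The contralateral T cell-like level of Has1 was then 5.59 CPM in place of 2.41.

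**Figure D3:**
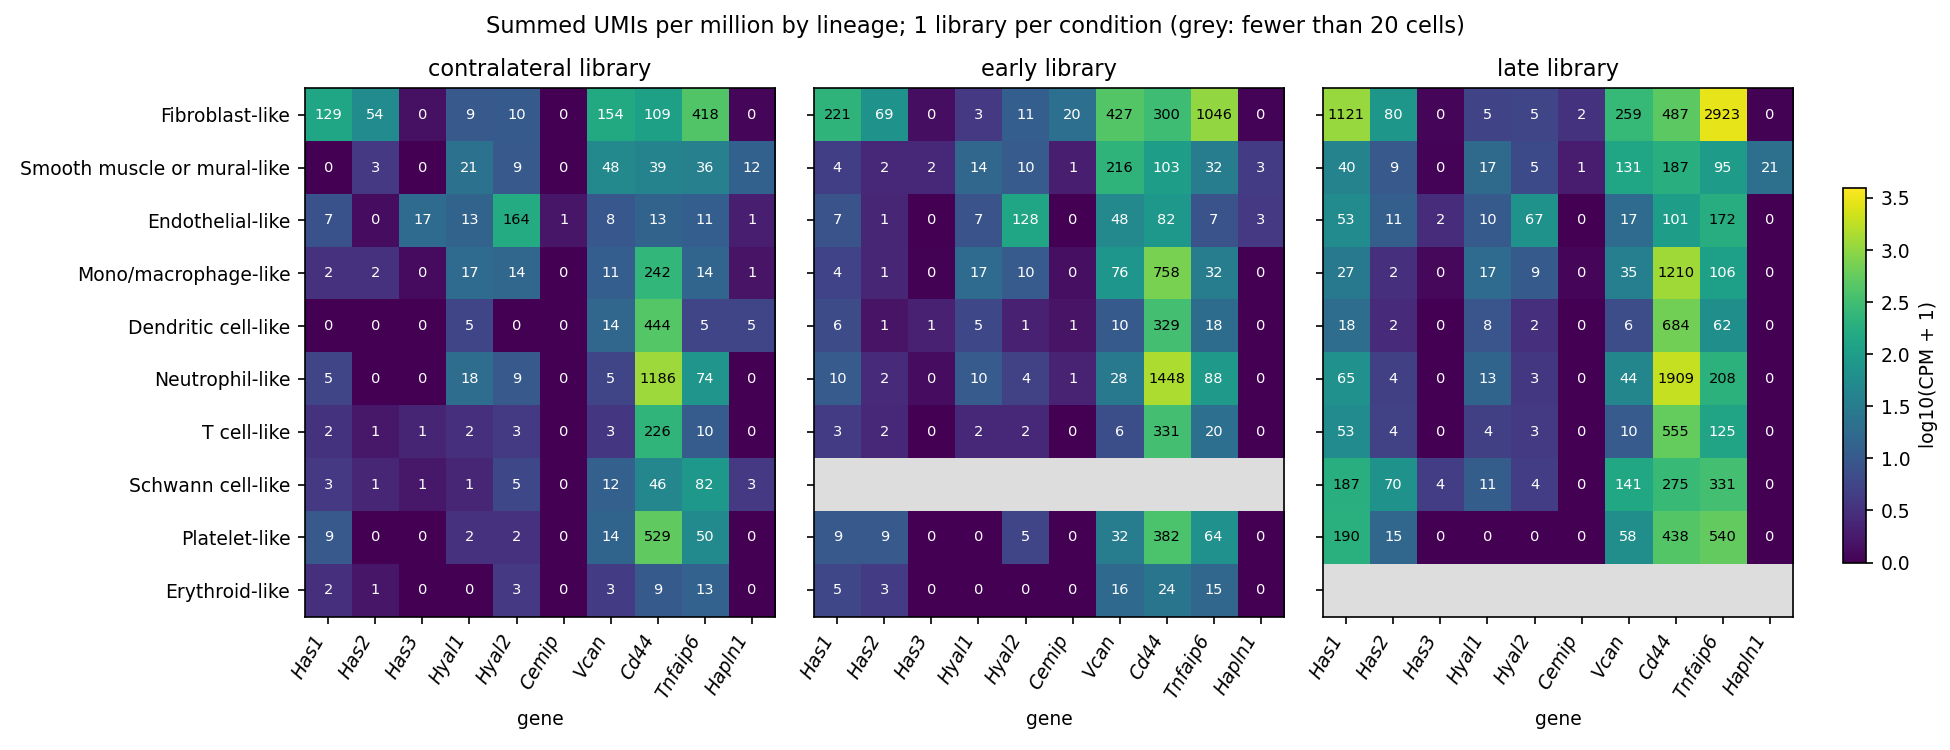
CPM of the summed UMIs of each gene (columns) in each named cell lineage (rows) of the 3 single-cell libraries (panels), with values rounded to whole numbers, color for log10(CPM + 1), and grey where a lineage had fewer than 20 cells. Has1, Has2, and Tnfaip6 are highest in fibroblast-like cells of all 3 libraries, Cd44 in neutrophil-like cells, and Hyal2 in endothelial-like cells.

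Has1 and Has2 transcripts were found mainly in fibroblast-like cells, which held 96.8%, 90.4%, and 95.7% of all Has1 UMIs and 97.0%, 88.1%, and 93.3% of all Has2 UMIs in the contralateral, early, and late libraries. Has1 measured 129 [123 to 135] CPM in contralateral, 221 [213 to 230.1] in early, and 1121 in late fibroblast-like cells, beside 2.41, 3.18, and 53.1 CPM in T cell-like cells. In the late T cell-like cells 2 of 563 held 105 of the 223 Has1 UMIs, and the level was 35.2 CPM without called doublets. Has2 measured 54.0 [50.1 to 58.1], 68.6 [63.8 to 73.6], and 79.9 [77.5 to 82.5] CPM, beside 0.690, 1.59, and 4.05 in T cell-like cells. The Has1 intervals of the 3 libraries were far apart, whereas those of Has2 lay within a narrow range.

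With every cell thinned to 1000 UMIs, which left 1573 of 1866 contralateral, 400 of 401 early, and 1937 of 1938 late fibroblast-like cells, Has1 was seen in 5.59%, 16.2%, and 39.9% of them and in 0.717%, 0%, and 3.58% of T cell-like cells. Has2 was seen in 3.31%, 6.75%, and 6.20% of fibroblast-like cells. Unthinned, 13.0%, 63.3%, and 80.9% of fibroblast-like cells had a Has1 UMI at median depths of 4375, 31919, and 25134 UMIs, and 1.11%, 2.40%, and 18.3% of T cell-like cells at 3596, 5601, and 6449. UMIs of both Has1 and Has2 were present in 3.64% of contralateral, 33.7% of early, and 38.3% of late fibroblast-like cells, without adjustment for depth. Has1 was uneven between cells: in the contralateral library 73 of 1866 fibroblast-like cells with 5 or more UMIs held 84.1% of the fibroblast UMIs, and 1 cell held 151.

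Has3 was found mainly in endothelial-like cells in the contralateral library and was scarce in the AVF libraries. In the contralateral library 51 of 65 Has3 UMIs (78.5%) lay in endothelial-like cells, at 17.2 [12.8 to 22.6] CPM beside 1.38 [0.376 to 3.53] in T cell-like cells. The 73 early endothelial-like cells had no Has3 UMI, an interval of up to 5.37 CPM, and the 89 late ones had 1. Of 17 early Has3 UMIs 8 lay in smooth muscle-like cells, and of 15 late ones 6 lay in fibroblast-like and 5 in monocyte and macrophage-like cells.

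Tnfaip6 had the highest level of the group in fibroblast-like cells. It measured 418 [407 to 430] CPM in contralateral, 1046 in early, and 2923 in late cells, beside 10.0, 19.8, and 125 CPM in T cell-like cells, and fibroblast-like cells held 94.1%, 86.3%, and 95.4% of its UMIs. After thinning, 17.9%, 45.0%, and 62.0% of fibroblast-like cells and 1.79%, 1.24%, and 11.8% of T cell-like cells had a Tnfaip6 UMI. In bulk tissue, sampled at other days, the median of Tnfaip6 was 129.7 CPM in early and 75.3 CPM in late AVFs, a difference that did not pass the test (-0.96 ± 0.60, adjusted p = 0.532 by edgeR's quasi-likelihood test, Benjamini-Hochberg).

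Among the kept cells, Vcan was shared by more lineages in AVFs. Fibroblast-like cells held 93.9% of its UMIs in the contralateral library, 56.4% in the early, and 81.6% in the late library, at 154 [147 to 161], 427 [415 to 439], and 259 [254 to 263] CPM. Monocyte and macrophage-like cells held 25.8% of the early Vcan UMIs, at 10.8 [7.71 to 14.8], 75.7 [72.6 to 78.9], and 35.2 [32.9 to 37.7] CPM in the 3 libraries, and smooth muscle-like cells measured 48.4 [27.6 to 78.6], 216 [203 to 229], and 131 [125 to 138]. T cell-like cells were at 2.76, 6.35, and 9.77 CPM. The contralateral smooth muscle value of Vcan rested on 32 cells and 16 UMIs, and was 82.6 CPM with a looser cell filter and 93.8 [19.3 to 274] after thinning. In all 3 of these lineages the early library had the highest Vcan level. After thinning to 1000 UMIs, 12.2%, 28.0%, and 17.3% of fibroblast-like and 0.639%, 8.50%, and 3.18% of monocyte and macrophage-like cells had a Vcan UMI, as did 9.38% [1.98 to 25.02], 18.9% [14.1 to 24.7], and 9.45% [7.05 to 12.3] of smooth muscle-like cells, where the contralateral interval spans the early and late values.

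Within monocytes and macrophages, Vcan was concentrated in monocyte-like sub-cluster 2, led by Plac8, Ly6c2, and Chil3, for which Vcan was itself a leading gene. This sub-cluster measured 274 [261 to 288] CPM in the early and 164 [150.3 to 178] in the late library. The inflammatory-like sub-cluster 4, led by Arg1, Mmp12, and Inhba, measured 77.5 and 49.1 CPM, and the other sub-clusters with at least 20 cells measured between 0 and 21.0 CPM.

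Cd44 was expressed by leukocytes and fibroblasts alike. Neutrophil-like cells had the highest levels, 1186, 1448, and 1909 CPM in the contralateral, early, and late libraries, followed in the AVF libraries by monocyte and macrophage-like cells with 242, 758, and 1210 CPM. Fibroblast-like cells measured 109 [103 to 115], 300.3 [290.3 to 311], and 487 [480.5 to 492.8] CPM, and smooth muscle-like cells 39.3, 103, and 187. Fibroblast-like cells held the largest share of Cd44 UMIs in the contralateral library (37.5%), whereas monocyte and macrophage-like cells held 67.9% in the early and 45.8% in the late library. Cd44 was the highest in the late library for each of these lineages, while in bulk, sampled at other days, every late AVF was below every early AVF. The summed bulk level of 6 neutrophil markers was 0.0783 to 108 CPM in contralateral veins, with Ly6g at 0 in all, 213 to 4330 CPM in early, 114 to 329.8 CPM in mid, and 99.3 to 218 CPM in late AVFs. The monocyte and macrophage marker sum was 12231 to 37883 CPM in early and 7844 to 16284 CPM in late AVFs. The part of either in the bulk Cd44 differences was not tested.

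The degrading enzymes had separate distributions. Hyal2 was highest in endothelial-like cells, at 164 [149.8 to 179], 128 [103 to 158], and 66.7 [46.5 to 92.8] CPM, and these cells held 69.7% of its contralateral UMIs. Bulk endothelial marker sums were 2082 to 3676 CPM in contralateral veins and 310 to 538 CPM in early AVFs. Hyal1 was low, at 17.2, 17.4, and 17.3 CPM in monocyte and macrophage-like cells, whose intervals overlapped. It measured 9.09 [7.52 to 10.9], 3.00 [2.08 to 4.19], and 4.52 [3.95 to 5.16] CPM in fibroblast-like cells, where the contralateral interval lay above the others, beside 2.07, 1.59, and 3.81 CPM in T cell-like cells. Among early monocyte and macrophage-like cells Hyal1 ranged from 7.24 [5.17 to 9.86] CPM in monocyte-like to 25.9 [15.6 to 40.4] CPM in resident-like cells.

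Cemip was not seen in any of the 1866 contralateral fibroblast-like cells, for which the exact interval reaches 0.284 CPM, against 222 UMIs or 19.6 [17.1 to 22.3] CPM in the early and 118 UMIs or 2.38 [1.97 to 2.85] CPM in the late cells. These UMIs were uneven, since 9 of 401 early cells held 157 of the 222 and 8 of 1938 late cells held 60 of the 118. The late level of Cemip was 4.79 CPM with the looser cell filter, and the early level 32.5 [17.3 to 55.6] CPM after thinning. Fibroblast-like cells held 88.8% of early and 85.5% of late Cemip UMIs, and T cell-like cells had none in any library. With cells thinned to 1000 UMIs, Cemip was found in 2.75% [1.38 to 4.87] of early and 0.207% [0.0563 to 0.528] of late fibroblast-like cells. In bulk, sampled at other days, the log2 change of Cemip from early to late AVFs was 0.50 ± 1.31 (adjusted p = 0.973 by edgeR's quasi-likelihood test, Benjamini-Hochberg).

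**Figure D4:**
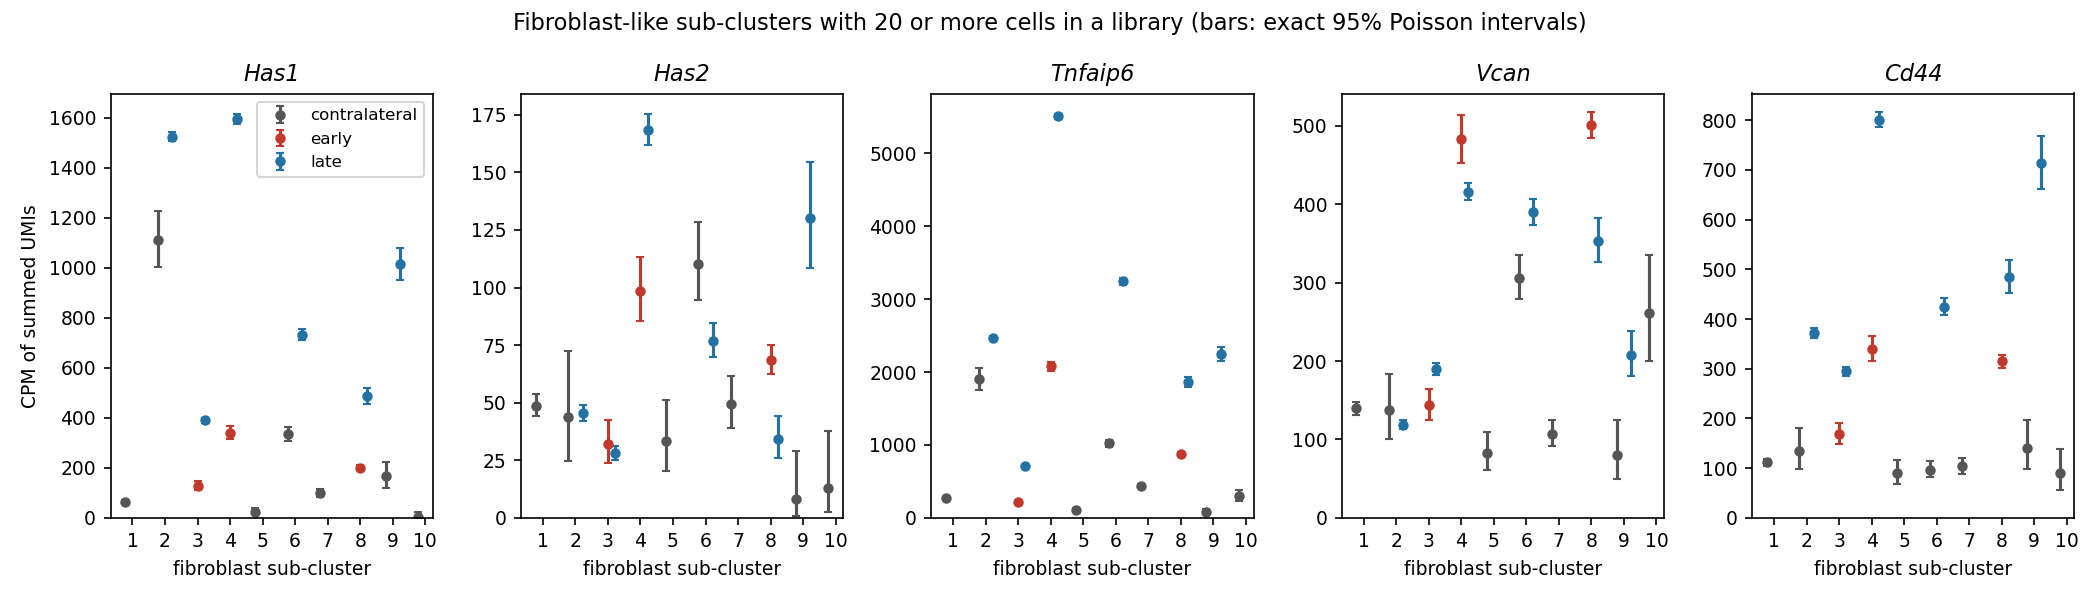
CPM of Has1, Has2, Tnfaip6, Vcan, and Cd44 (panels, vertical axes) in each fibroblast-like sub-cluster (horizontal axis) with at least 20 cells, by library (colors), with exact 95% Poisson intervals as bars. Sub-cluster 4 has the highest level of all 5 genes in the late library, with Tnfaip6 at 5509 CPM and Has2 at 168 CPM.

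Sub-clusters of the fibroblast-like cells differed in the members they expressed. Adventitial-like sub-cluster 4 (62 early and 425 late cells), led by Cxcl5, Hp, and Saa3, had Tnfaip6 at 2081 CPM in the early and 5509 in the late library, Has2 at 98.5 and 168, Cd44 at 340.1 and 801, and Cemip at 52.0 [42.5 to 62.9] and 5.40 [4.24 to 6.78]. Adventitial-like sub-cluster 6, led by Pla1a and also marked by Dpp4 and Cd55, was present in the contralateral library (142 cells), where it had the highest Has2 level, 110.4 [94.5 to 128] CPM, and the highest Vcan level, 306 [279 to 335], of the sub-clusters with at least 20 cells, together with Has1 at 334 and Tnfaip6 at 1023. The quiescent-like sub-cluster 1 of the same library, led by C7 and Inmt (802 cells), had Has2 at 48.8 and Vcan at 139.7 CPM.

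In the early library most fibroblast-like cells were activated-like sub-cluster 8 (241 cells), led by Ptn with Tnc among its leading genes, with Vcan at 501 [484 to 518], Has2 at 68.6, and Has1 at 200.3 CPM. In the late library, late-like sub-cluster 3, led by Thbs4, C1qtnf3, and Cilp (547 cells), had the lowest levels of Has1 (389.8 CPM), Has2 (28.0), Tnfaip6 (708), and Cd44 (295) of the sub-clusters with at least 20 cells there, with Vcan at 189.6 CPM. Late-like sub-cluster 2, for which Has1 was a leading gene, had Has1 at 1525 CPM in its 611 late cells and 1110.2 in its 31 contralateral cells, and the lowest Vcan level of the late sub-clusters with at least 20 cells, 119 [114 to 125] CPM.

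In the AVF libraries almost all Hapln1 UMIs lay in the cluster named smooth muscle-like, with 16 of 19 early and 262 of 266 late UMIs. In the late library 5 of the 508 smooth muscle-like cells held 230 of these 262 UMIs (87.8%), and 1 cell held 101. Col2a1, the collagen of cartilage, measured 39966 CPM in those 5 cells and 4.69 CPM in the 480 smooth muscle-like cells without Hapln1, and 4 of the 5 had a Col2a1 UMI. Chad, which encodes the cartilage protein chondroadherin, measured 7055 against 0.754 CPM. Ibsp and Col9a1, of the same bulk marker list as Col2a1, measured 2964 against 1.17 and 1105 against 3.10 CPM. The cluster name therefore may not hold for these 5 cells. The cells were chosen by their Hapln1 counts, so these values describe 5 cells and are given without a test.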

How the data were processed

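Bulk libraries were made from poly(A) RNA of single vessels, and the authors deposited a table of raw read counts for 56980 genes. The submitters' processing notes name STAR and mm10/GRCm38 without versions, and whether counting used strand is not given in the sources used here. For the single cells (10x Genomics 3′ chemistry), the deposited matrices hold UMI counts per barcode from Cell Ranger 6.0.2, per the file headers. Gene symbols came from the single-cell gene list (32210 genes) and the annotation (19962), and 4808 genes had none.

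Bulk counts were fitted in edgeR 4.0.16 (R 4.3.3) with TMM scaling over all 4 groups, keeping genes with a mean normalized count of at least 100. The quasi-likelihood test was used with Benjamini-Hochberg adjustment, and a gene was called at an adjusted p under 0.01 with a log2 fold change of 1 or more in either direction. The SE given with an edgeR change was derived from the test, as the absolute log2 fold change divided by the square root of its F statistic. This fit called 200 of 200 changed genes in simulated counts. Their spread was set below the common dispersion (edgeR's measure of variation between libraries) of 0.710 fitted here. The simulation therefore does not measure power in these data. CPM are counts relative to the TMM-scaled library total, and in single cells UMIs relative to the summed UMIs of a lineage. Alternatives were DESeq2 1.42.0, edgeR's likelihood ratio test, RLE scaling, filterByExpr, no filter, an adjusted p of 0.05, sex as a term, female mice alone, and leaving out each library.

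Single cells with 200 to 6000 genes and at most 10% mitochondrial UMIs were kept, clustered in scanpy 1.11.5 (2000 variable genes without the 10 genes described, 12 components, 20 neighbors, Leiden resolution 0.5), and named from marker lists. The doublet caller marked 0, 2, and 120 cells and so did not work, and doublets were kept. The 10 genes, the related lists, and the markers were chosen with earlier results of these data known. From each related list up to 4 genes, those with the smallest p over the 4 groups, could be named, and for each member the 3 tested genes with the highest Spearman correlation. Promoter windows came from RefSeq on GRCm38.p6.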

Additional observations from a re-analysis of the deposited data

Results flagged for a closer look

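In 7 of 40 combinations of gene and group, 1 library lay far from the rest of its group by Dixon's test at the 95% level. Chance alone gives this in about 1 in 20 groups of normally distributed values. CPM are skewed and hold zeros, so that rate does not apply here and the flags only point to libraries. Those for Has1, Has2, and Cemip were contralateral veins above the others: Has1 at 33.8 CPM in vein 35 (0 to 8.07 in the others), Has2 at 21.1 CPM in vein 633 (up to 0.907), and Cemip at 5.31 CPM in vein 633 (up to 2.07). Hapln1 was apart in 3 groups, at 0.175 CPM in contralateral vein 31 (0 in the others), 2.26 CPM in early AVF 7 (up to 0.127), and 0.941 CPM in mid AVF 13 (0.121 to 0.348). Hyal2 measured 104 CPM in early AVF 6 (62.6 to 81.5 in the others).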

How the results depend on the processing

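The direction of Cd44, Vcan, Has1, Has2, Cemip, and Tnfaip6 against contralateral veins was the same under every alternative run. At an adjusted p of 0.05 the members called were 3 in early (Tnfaip6 beside Cd44 and Vcan), 2 in mid, 2 in late, and 2 over the 4 groups. DESeq2 gave the same numbers, with Has2 in place of Tnfaip6 in early AVFs, and the likelihood ratio test gave 2 in each. With filterByExpr or no filter they were 2 in mid and 1 in late, and in female mice alone 0 in early, mid, and over the 4 groups. Leaving out single libraries gave 1 to 3 members in early, 0 to 3 in mid, 0 to 2 in late, and 1 to 2 over the 4 groups.

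All genes called in early AVFs numbered 2520 at 0.05, 2410 by DESeq2, 3803 with filterByExpr, 3938 with no filter, and 327 in females. In mid these were 1421, 1398, 2823, 2728, and 192 (1158 by the likelihood ratio test), and in late 1304, 1278, 2696, 2567, and 173 (1044). Between mid and early they were 482 at 0.05, 445 by DESeq2, 356 by the likelihood ratio test, and 0 with filterByExpr, with sex as a term, or in females. Between late and early they were 795, 733, 625, 208 with no filter, and 0 in females, and between late and mid DESeq2 called 1. Over the 4 groups they were 2438 at 0.05, 3097 with filterByExpr, 2858 with no filter, and 223 in females. Leaving out single libraries gave 1370 to 1825 in early, 530 to 955 in mid, 432 to 889 in late, 0 to 305 between mid and early, 32 to 549 between late and early, 0 between late and mid, and 1321 to 1813 over the 4 groups.

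Uncalled changes near 0 turned direction. Vcan from early to mid was 0.0223 with DESeq2 or RLE scaling, 0.0331 with filterByExpr, 0.0658 with sex as a term, and -0.13 to 0.0732 leaving out libraries. Has2 from early to mid was 0.21 with sex as a term and -0.21 to 0.0246 leaving out libraries. In females, Tnfaip6 from early to mid was 0.22, Has1 from early to late 0.29, Cemip from mid to late 0.13, and Hyal2 from mid to late 0.0460. Leaving out libraries, Has1 from early to late ran from -0.37 to 0.13, Cemip from mid to late from -0.46 to 0.0408, Hyal2 from early to mid from -0.17 to 0.0238, and Hyal1 against contralateral veins from -0.52 to 0.10 in mid and from -0.14 to 0.47 in late. The cause was not tested.

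Of the single-cell levels, 112 with at least 3 UMIs remained after thinning to 1000 UMIs per cell. Levels moved beyond their interval in 4 of 208 without called doublets, 6 of 208 at resolution 1.0, 59 of 208 with a looser cell filter, and 114 of 204 after thinning. The doublet setting left out 0 contralateral, 2 early, and 120 late cells, so it could hardly move levels outside the late library. No paired analysis was possible because no groups share replicate numbers. With 1 single-cell library per condition, no difference between those libraries could be tested.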

Other observations

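Other genes of the hyaluronan matrix had distinct carriers in the single-cell libraries. Gfpt2, an isoform of the enzyme that commits glucose to hexosamine and hence to one of the sugars of hyaluronan, measured 193, 125, and 412 CPM in fibroblast-like cells of the contralateral, early, and late libraries, beside 3.79, 3.97, and 20.01 in T cell-like cells. Ptx3, a leading gene of the fibroblast cluster that held most AVF cells, measured 67.6, 771, and 1771 CPM in fibroblast-like cells. Itih4 was carried by smooth muscle-like cells, at 36.3, 657, and 195 CPM beside 0.345, 4.76, and 3.57 in T cell-like cells. Tnc in fibroblast-like cells measured 0.39, 392.5, and 65.8 CPM.

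Lyve1, which fell in early bulk AVFs, measured 472, 26.2, and 37.5 CPM in monocyte and macrophage-like cells and 152, 154, and 1929 CPM in endothelial-like cells. The last value comes from the 89 endothelial-like cells of the late library. Gusb, which rose in early bulk AVFs, measured 81.8, 142, and 89.0 CPM in monocyte and macrophage-like cells.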
